A study of Mus musculus with 25 samples.

Results

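The genes described here are 33 mouse genes of the tricarboxylic acid (TCA) cycle and of the carriers and shuttles that link the mitochondrial matrix to the cytosol. They were chosen by name: each row of the deposited count table whose Ensembl identifier maps to one of the listed symbols was taken. All 33 were found among the 56941 genes of the table, and all 33 passed the filter on low counts that left 17682 genes for testing. By role, 15 were counted with the cycle (Cs, Aco1, Idh1, Idh2, Idh3a, Idh3b, Idh3g, Ogdh, Dlst, Dld, Sucla2, Suclg1, Suclg2, Fh1 and Mdh2) and 6 with the malate-aspartate shuttle (Mdh1, Got1, Got2, Slc25a11, Slc25a12 and Slc25a13). Gpd1 and Gpd2 form the glycerol phosphate shuttle, and 4 are other inner membrane carriers (Slc25a1, Slc25a3, Slc25a4 and Slc25a5). The remaining 6 bring carbon into the cycle or take it out (Glud1, Me1, Me2, Me3, Acly and Acss1). The label fits these roles with qualifications. Aco1 and Idh1 encode cytosolic enzymes rather than steps of the mitochondrial cycle, and every count of cycle genes below includes them. Mitochondrial aconitase and the subunits of succinate dehydrogenase, which complete the cycle, are not among the 33. They were followed in a list of 41 related genes.

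RNA was sequenced from 25 mouse hearts in 6 groups formed by genotype, WT or MCT1KO, and treatment, NO PUMP, SALINE or ANG/PE. Ang/PE stands for a pair of neurohormonal agonists used to bring on cardiac hypertrophy, and the study asked how lactate metabolism bears on that growth. There were 4 WT and 3 MCT1KO hearts without a pump, 6 WT and 4 MCT1KO hearts with saline, and 3 WT and 5 MCT1KO hearts with Ang/PE. Strain, age, sex, infusion time and the way in which the MCT1KO allele was made or driven are not in the labels used here, and no allele or agent is named as shared by all groups.

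The TCA cycle oxidises acetyl-CoA to carbon dioxide and passes the electrons to the respiratory chain as NADH and FADH2. The inner mitochondrial membrane does not let NADH through, so cytosolic NADH, including that made when lactate is oxidised to pyruvate, is handed on by the malate-aspartate shuttle and, to a lesser part in heart muscle, by the glycerol phosphate shuttle. The citrate carrier Slc25a1 and ATP citrate lyase Acly work in the other direction and supply cytosolic acetyl-CoA for lipid synthesis, a route that is strong in fat and weak in the heart.

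The promoters of Slc25a1 and Acly are shown because these genes encode the consecutive steps of that citrate export route and were the members with the most uneven levels between hearts, together with Gpd1 and Gpd2. The sequences are the 250 bases before the RefSeq start on assembly GRCm38.p6, read 5′ to 3′ on the gene's strand, which is minus for both. They lie at chr16:17928220-17928469 for Slc25a1 and at chr11:100528001-100528250 for Acly. Capitals mark the only match, in either promoter, to the motifs searched.
Slc25a1: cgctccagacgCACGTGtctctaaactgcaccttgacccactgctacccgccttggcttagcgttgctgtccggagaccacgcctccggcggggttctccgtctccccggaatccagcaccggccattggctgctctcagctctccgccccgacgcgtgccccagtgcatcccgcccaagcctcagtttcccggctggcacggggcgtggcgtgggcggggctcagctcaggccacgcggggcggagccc
Acly: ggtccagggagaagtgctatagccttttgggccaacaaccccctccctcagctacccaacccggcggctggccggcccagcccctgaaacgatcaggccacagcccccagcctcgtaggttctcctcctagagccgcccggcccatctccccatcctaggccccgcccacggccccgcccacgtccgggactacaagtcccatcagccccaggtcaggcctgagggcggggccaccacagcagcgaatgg
The match in Slc25a1 is an E-box (CACGTG). RefSeq promoters were found for 30 of the 33 members, and both strands were searched for 4 motifs that do not overlap in their letters. The E-box was found for 3 of 30 members (Ogdh, Slc25a1 and Slc25a13) against 6.86% of 27025 genes. The NRF1 element (GCGCA, any base, then GCGC) was found for 2 members (Slc25a3 and Sucla2) against 4.23% of genes. The CCAAT box (searched as CCAATC) was found for 7 members against 16.6% of genes, and the oestrogen-related receptor element (TNAAGGTCA) for 0 members against 1.3% of genes. A match is a description of these letters and not a site of binding.

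The level of the 33 genes was read in the 4 WT hearts without a pump, as CPM (counts scaled to a common library size) per kb of exon. The length is the union of all annotated exons of a gene. Ranks and ratios on this scale therefore depend on the annotation. The heart isoform of the ADP/ATP translocase, Slc25a4, had the highest level at 1449 ± 119 CPM per kb (SD, n = 4). Cytosolic malate dehydrogenase Mdh1 followed at 676 ± 28.4, then the mitochondrial NADP-dependent isocitrate dehydrogenase Idh2 at 565 ± 115 and the 2-oxoglutarate dehydrogenase subunit Ogdh at 433 ± 110. The hearts of Idh2 overlapped those of Mdh1 and of Ogdh, while Mdh1 and Ogdh did not overlap. The lowest levels were those of Me3 at 4.84 ± 0.83, Slc25a1 at 2.85 ± 0.268, Gpd2 at 2.80 ± 0.183 and Me2 at 1.38 ± 0.065 CPM per kb. Me2 and Me3 encode mitochondrial malic enzymes, and Gpd2 the mitochondrial glycerol phosphate dehydrogenase. The enzymes of the malate-aspartate shuttle therefore stood well above those of the glycerol phosphate shuttle on this scale, with Got1 at 260 ± 37.7 against Gpd1 at 13.9 ± 2.8.

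**Figure D1:**
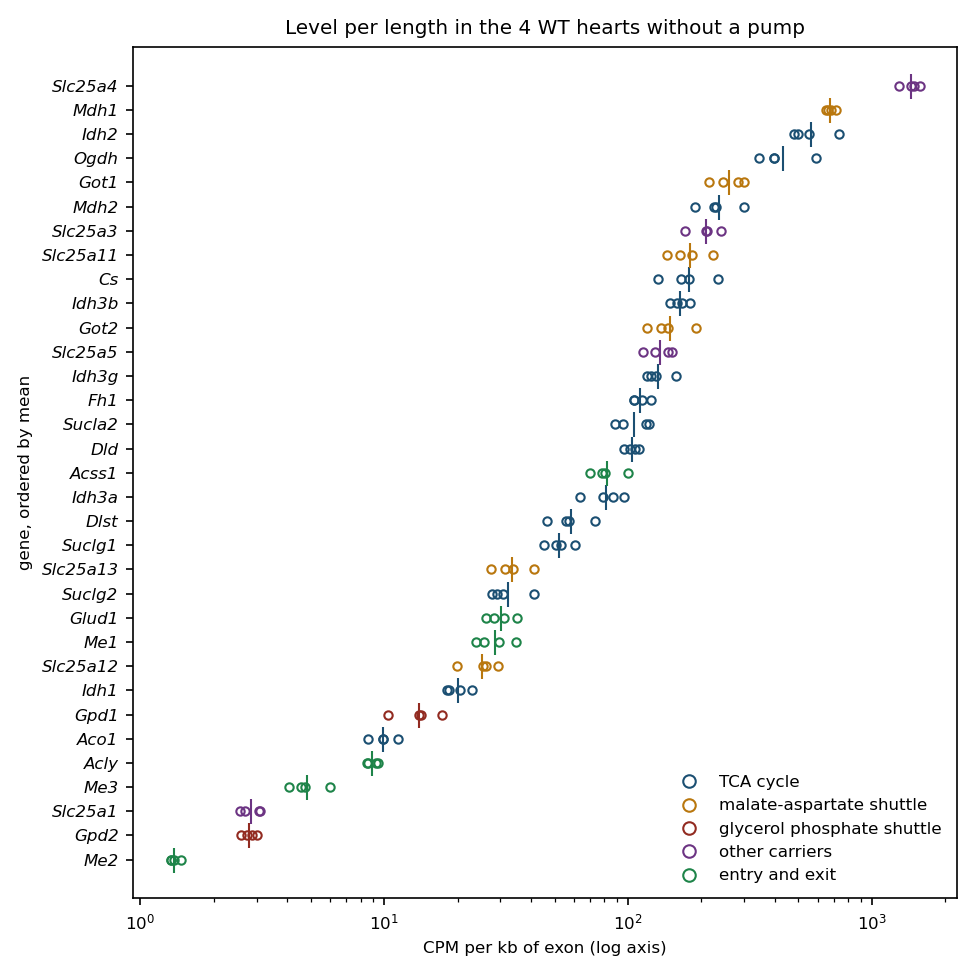
Level of each of the 33 genes in the 4 WT hearts without a pump, in CPM per kb of exon on a log axis. Circles are hearts, bars are means, and colours are roles. Slc25a4 stands highest at a mean of 1449 and Me2 lowest at 1.38.

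Some members are paralogs with a division of labour, and their ratio within a heart does not depend on library size. The 2 ADP/ATP translocases differed 10.7 ± 0.5 fold per kb (Slc25a4 over Slc25a5, SD, n = 4) in WT hearts without a pump. The mitochondrial Idh2 stood 28.7 ± 7.92 fold above the cytosolic Idh1. The aspartate-glutamate carriers were closer, with Slc25a12 at 0.757 ± 0.0484 of Slc25a13 per kb. Their order rests on the length, 7342 against 3798 bases of exon. Before that division their means were 185 and 127 CPM. The ADP-forming succinyl-CoA ligase subunit Sucla2 stood 3.33 ± 0.382 fold above the GDP-forming Suclg2.

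Total counts per heart, in units of 10⁶, ran from 12.2 to 24.9, highest without a pump (18.4 to 24.9) and lowest with Ang/PE (12.2 to 16.6). The lowest count of any member in any heart was 49 reads, for Slc25a1. Slc16a1, which encodes MCT1, was not lost in the libraries labelled MCT1KO: its log2 fold change against WT was -0.02 ± 0.15 (SE) without a pump, -0.33 ± 0.13 with saline and -0.18 ± 0.15 with Ang/PE, with adjusted p of 0.976, 0.219 and 0.807 (edgeR quasi-likelihood test). The genotype is therefore given below as labelled. Myl7, a light chain of atrial muscle that is scarce in adult ventricle, was at most 0.785 CPM in the 15 hearts without saline and ran from 0 to 1357 CPM in the 10 saline hearts. Xist, a transcript of female cells, was high in 13 of 25 hearts, among them 0 of 3 MCT1KO hearts without a pump and 3 of 3 WT hearts with Ang/PE. In RNA from tissue of many cell types, fewer cells of a type and less RNA per cell cannot be told apart.

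One library stood apart for the members and is named before the results. MCT1KO saline replicate 4 held the lowest level of all 25 hearts for 19 of the 33 members and the highest for 6, against 16.8% and 17.7% of all tested genes. It was the highest heart for 9 of 9 adipocyte markers, 4 of 5 atrial markers and 4 of 4 smooth muscle markers, and the lowest for 6 of 8 cardiomyocyte markers. Its adipocyte markers summed to 2055 CPM, against 156 to 391 in the other 24 hearts, with the brown fat uncoupling protein Ucp1 at 551 CPM and adiponectin (Adipoq) at 123. Its cardiomyocyte markers summed to 33661 CPM, against 45198 to 70186 in the others. The ventricular light chains Myl2 and Myl3 were the members of that list farthest below, at 839 and 592 CPM against at least 3489 and 2506. The part of other tissue in the results was not tested, and each result below that rests on this heart is given with and without it.

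**Figure D2:**
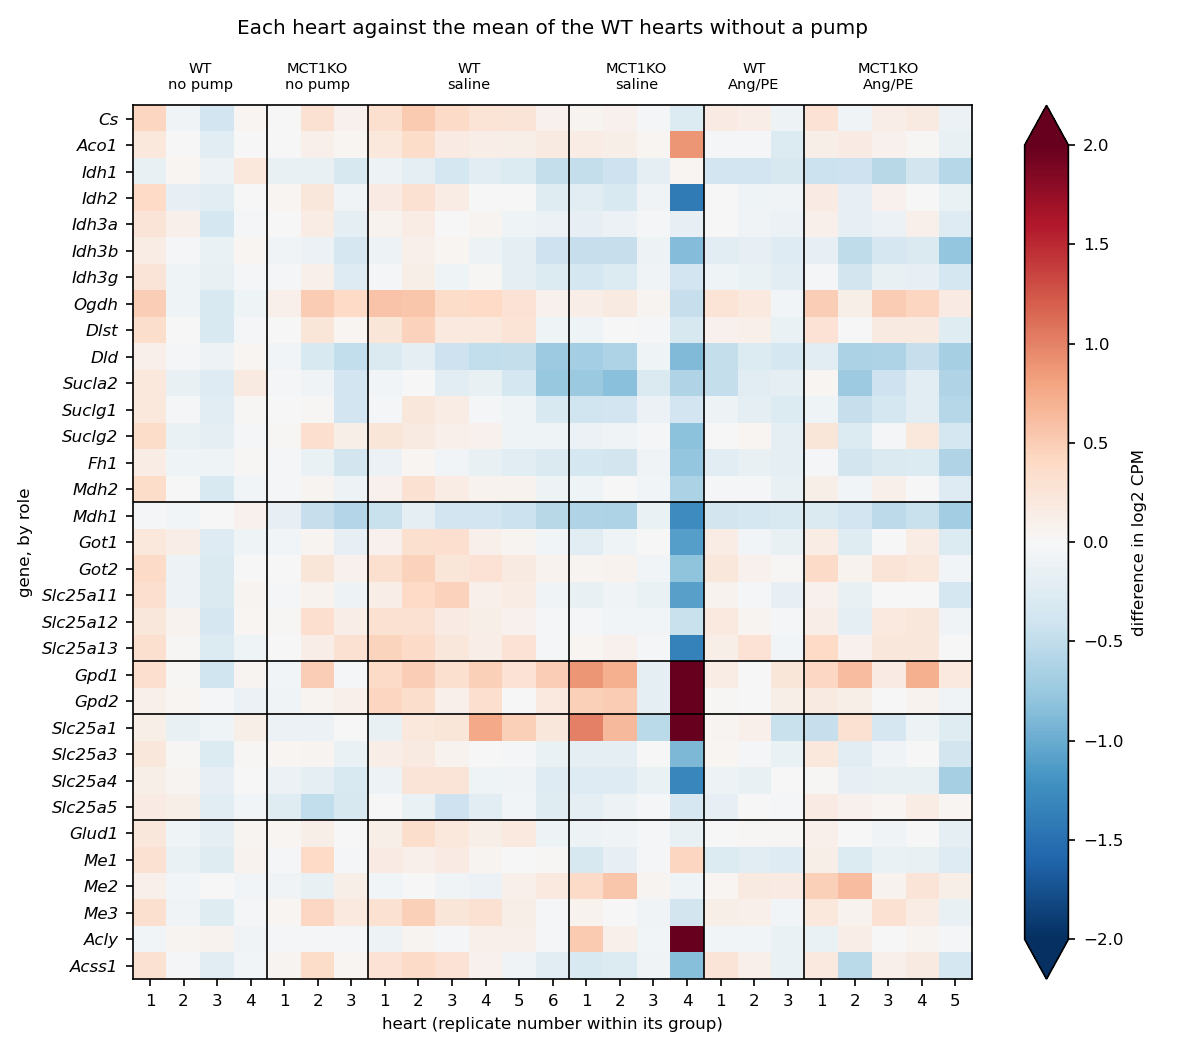
Each of the 33 genes (rows, by role) in each of the 25 hearts (columns, by group), as the difference in log2 CPM from the mean of the WT hearts without a pump. Colours end at 2 in both directions. MCT1KO saline replicate 4 is the column with blue shuttle genes and dark red Gpd1, Gpd2, Slc25a1 and Acly.

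Ang/PE was compared with saline in the hearts labelled MCT1KO, the step from pump control to hypertrophic stimulus. Lower levels with Ang/PE were called for 4 of the 33 members at an adjusted p below 0.05, against 4.46% of all tested genes (1.75% higher and 2.7% lower). They were Slc25a1, Gpd1, Gpd2 and Acly, the citrate export route and the glycerol phosphate shuttle. None was called higher. The saline group in these calls includes the heart described above, and all 4 were lost without it. Gpd2 and Acly were also lost without any 1 of the 5 Ang/PE hearts, and Gpd1 without 21 of the 25 hearts in turn.

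Slc25a1 (ENSMUSG00000003528), the carrier that exports citrate, was at 12.4, 9.69, 4.25 and 97.4 CPM in MCT1KO saline replicates 1 to 4. With Ang/PE it was at 4.48, 7.61, 4.86, 5.76 and 5.22 CPM in replicates 1 to 5. Saline replicate 4 was high and the groups overlapped, since replicate 3 was the lowest of all. The log2 fold change was -2.46 ± 0.57 (SE), with an adjusted p of 0.0210 (edgeR quasi-likelihood test). Without saline replicate 4 it was -0.66, with an adjusted p of 0.211.

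Gpd1, the cytosolic glycerol phosphate dehydrogenase, was at 74.6, 66.2, 35.4 and 666 CPM in the 4 saline hearts and at 54.2, 62.1, 45.6, 66.5 and 46.5 CPM in the 5 Ang/PE hearts. Again saline replicate 4 was high by itself and replicate 3 lay below every Ang/PE heart. The log2 fold change was -1.94 ± 0.54 (SE, adjusted p = 0.0469, edgeR), and -0.10 without that heart (adjusted p = 0.874). Gpd2, its mitochondrial partner, was at 25.4, 26.1, 16.1 and 163 CPM with saline and at 20.7, 19.8, 18.2, 19.1 and 17.5 with Ang/PE. As for Gpd1, replicate 4 was far above and replicate 3 below every Ang/PE heart. The log2 fold change of Gpd2 was -1.60 ± 0.43 (SE, adjusted p = 0.0383, edgeR), and -0.25 without saline replicate 4 (adjusted p = 0.365).

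Acly, which cleaves exported citrate into acetyl-CoA and oxaloacetate, was at 67.7, 50.4, 45.6 and 375 CPM with saline and at 43, 51.7, 46.9, 48.8 and 46.3 with Ang/PE. Saline replicates 1 and 4 lay above the Ang/PE hearts and replicates 2 and 3 among them. Acly had a log2 fold change of -1.51 ± 0.41 (SE, adjusted p = 0.0400, edgeR), and -0.21 without replicate 4 (adjusted p = 0.316). In that heart the 4 genes were high, as were adipocyte, smooth muscle and most atrial markers, which 1 heart cannot tell apart. Levels of the 4 genes were 8.74 to 22.9 fold apart between the highest and lowest of the 25 hearts, against 1.46 to 3.49 fold for the other 29 members. With scores of adipocyte and atrial markers as covariates, the log2 fold changes of Slc25a1, Gpd1, Gpd2 and Acly were 0.62, 0.86, 0.42 and 0.41, in the other direction.

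**Figure D3:**
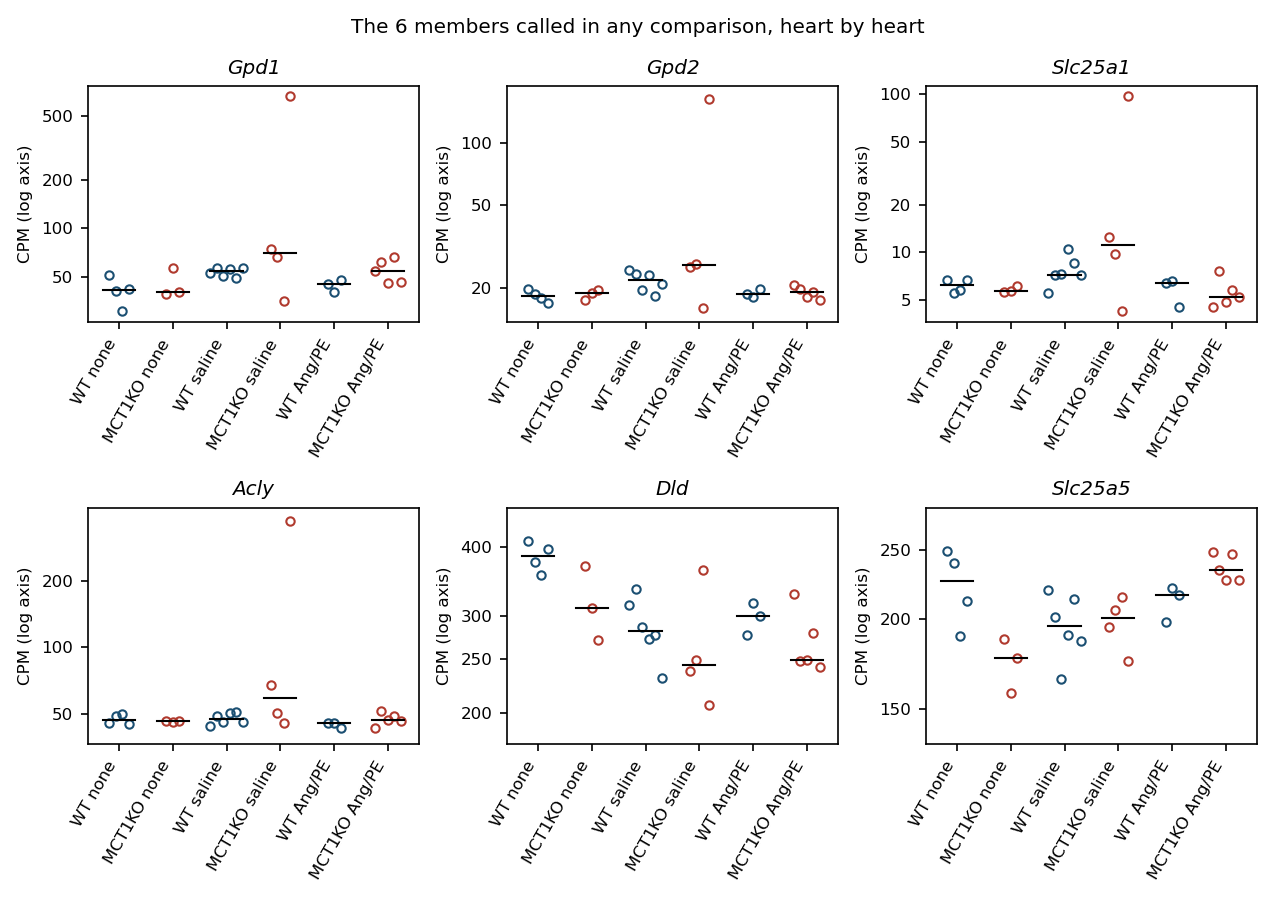
CPM on a log axis in each of the 25 hearts for the 6 members called in any comparison. Circles are hearts (blue WT, red MCT1KO), bars are group medians, and none stands for no pump. Gpd1, Gpd2, Slc25a1 and Acly each have 1 MCT1KO saline heart far above the rest, at 666, 163, 97.4 and 375 CPM.

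The other 29 members were not called in this comparison. Over all 33, 25 were higher with Ang/PE and 8 lower, with a median log2 fold change of 0.14, while 48.2% of all tested genes were higher. Without saline replicate 4, 21 were higher and the median was 0.04. The malate-aspartate shuttle was higher for 6 of 6 genes with all hearts (median 0.24) and for 5 of 6 without that heart (median 0.08). At an unadjusted p below 0.05 there were 11 of 33 members with all hearts, against 20.4% of tested genes, and 3 without that heart, against 13.4%. Markers of cell types moved with the list. Cardiomyocyte markers were higher with Ang/PE for 8 of 8 genes (median log2 fold change 0.26), while 8 of 8 tested adipocyte markers, 5 of 5 atrial markers and 4 of 4 smooth muscle markers were lower. Without the saline hearts with Myl7 above 10 CPM, which leaves only 1 MCT1KO saline heart, 19 of the 33 members were higher. The part of these cell types in the list's shift was not tested.

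In WT hearts, Ang/PE against saline gave 0 calls among the 33 members by edgeR, against 0.017% of all tested genes (0.0113% higher and 0.00566% lower). DESeq2 also gave 0, against 1.75% of the 37179 genes it fitted. Most members were nonetheless lower with Ang/PE, 29 of 33, with a median log2 fold change of -0.12, while 48.4% of all tested genes were higher. Cardiomyocyte markers were also lower, for 6 of 8 genes (median -0.12), as were 5 of 5 atrial, 7 of 8 tested adipocyte and 4 of 4 smooth muscle markers. Leaving out the saline hearts with Myl7 above 10 CPM kept 2 WT saline hearts. Of the 33 members, 31 were then lower with a median of -0.23, and the part of these cell types was not tested further. At an unadjusted p below 0.05 there were 2 members, against 19.1% of tested genes. These were Me1, the cytosolic malic enzyme that makes NADPH, and Aco1, the cytosolic aconitase that doubles as iron regulatory protein.

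Me1 ran from 109 to 122 CPM with a median of 115 in the 6 WT saline hearts and was at 90.1, 92.6 and 90.7 CPM in the 3 WT Ang/PE hearts. All 3 Ang/PE hearts were below all saline hearts. Its log2 fold change was -0.34 ± 0.14 (SE, adjusted p = 0.183, edgeR). Aco1 ran from 48.3 to 57.1 CPM (median 50.1) with saline and was at 43.1, 43.8 and 36.6 CPM with Ang/PE, again with no overlap. Its log2 fold change was -0.31 ± 0.14 (SE, adjusted p = 0.217, edgeR). Both were called when only these 2 groups were fitted, with adjusted p of 0.0143 for Me1 and 0.0483 for Aco1 (edgeR). That fit called 945 of 16621 tested genes. With Xist as a covariate, the log2 fold change of each was -0.13, and the part of sex was not tested further. Citrate synthase Cs, next by p, ran from 1061 to 1446 CPM (median 1233) with saline and was at 1122, 1098 and 935 CPM with Ang/PE, so that the groups overlapped. Its log2 fold change was -0.25 ± 0.15 (adjusted p = 0.363, edgeR).

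Saline was compared with no pump in WT hearts, a contrast of the pump and its surgery rather than of the agonists. Dld, the dihydrolipoamide dehydrogenase shared by the 2-oxoglutarate, pyruvate and branched-chain complexes and the glycine cleavage system, fell with the pump. It was the only one of 33 members called, against 6.61% of all tested genes (2.39% higher and 4.22% lower). Dld (ENSMUSG00000020664) was at 409, 375, 356 and 395 CPM in the 4 WT hearts without a pump and ran from 232 to 335 CPM, with a median of 282, in the 6 with saline. The groups did not overlap. Dld had a log2 fold change of -0.43 ± 0.13 (SE, 95% interval -0.69 to -0.16), with an adjusted p of 0.0489 (edgeR). The call was lost when any 1 of 16 of the 25 hearts was left out, with adjusted p between 0.0132 and 0.126 over all 25 omissions. Those 16 were WT no pump replicates 1 to 4, WT saline replicates 1, 3, 4, 5 and 6, WT Ang/PE replicates 1 and 2, MCT1KO no pump replicate 2, MCT1KO saline replicate 2 and MCT1KO Ang/PE replicates 3, 4 and 5.

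Mdh1 and Idh1 were next by p and did not pass. Mdh1, the cytosolic arm of the malate-aspartate shuttle, was at 1695, 1665, 1748 and 1831 CPM without a pump and ran from 1182 to 1533 CPM (median 1306) with saline, with no overlap. Its log2 fold change was -0.39 ± 0.14 (SE, adjusted p = 0.0892, edgeR). Idh1, the cytosolic NADP-dependent isocitrate dehydrogenase, was at 50, 56.9, 51.2 and 63.6 CPM without a pump and ran from 39.6 to 51.5 (median 46.5) with saline, where 1 saline heart overlapped. Its log2 fold change was -0.27 ± 0.09 (adjusted p = 0.0698, edgeR). Without MCT1KO saline replicate 4, which is in neither group of this comparison, Dld, Mdh1 and Idh1 were all called. In that fit 9.59% of all tested genes were called, so the further calls are not particular to these members.

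Most of the list went the other way: 23 of 33 members were higher with saline in WT hearts, with a median log2 fold change of 0.07, against 50.3% of all tested genes. The cycle divided 7 higher to 8 lower, the malate-aspartate shuttle 5 to 1, and all 6 entry and exit enzymes were higher. At an unadjusted p below 0.05 there were 6 members, against 24.3% of tested genes. Markers higher with saline were 5 of 5 atrial (median 9.64), 7 of 8 tested adipocyte (median 3.22) and 4 of 4 smooth muscle (median 0.78). Leukocyte markers were lower for 6 of 6 genes (median -0.64) and erythroid markers for 4 of 4 (median -0.47). Cardiomyocyte markers divided 4 higher to 4 lower. Only 2 of the WT saline hearts had Myl7 of at most 10 CPM. Without the saline hearts above that, 24 of 33 members were higher with a median of 0.17. The part of these cell types was not tested.

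GC content moved with the difference between saline and no pump in WT hearts. Dld has the lowest GC content of the members at 40.6%, and the median of the list is 48.2%, against 49.0% for tested genes. Across genes, which are not independent replicates and share the same libraries, Spearman's rho between GC content and the log2 fold change was 0.54 over the 33 members and 0.34 over 17172 genes. With offsets for GC content and length fitted per library, the log2 fold change of Dld was -0.19, with an adjusted p of 0.402 (edgeR). With the adipocyte and atrial marker scores as covariates it was -0.14 (adjusted p = 0.727). The part of GC content in the difference was not tested further. Xist was high in 2 of the 4 WT hearts without a pump and in 1 of the 6 with saline, and the part of sex was not tested.

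**Figure D4:**
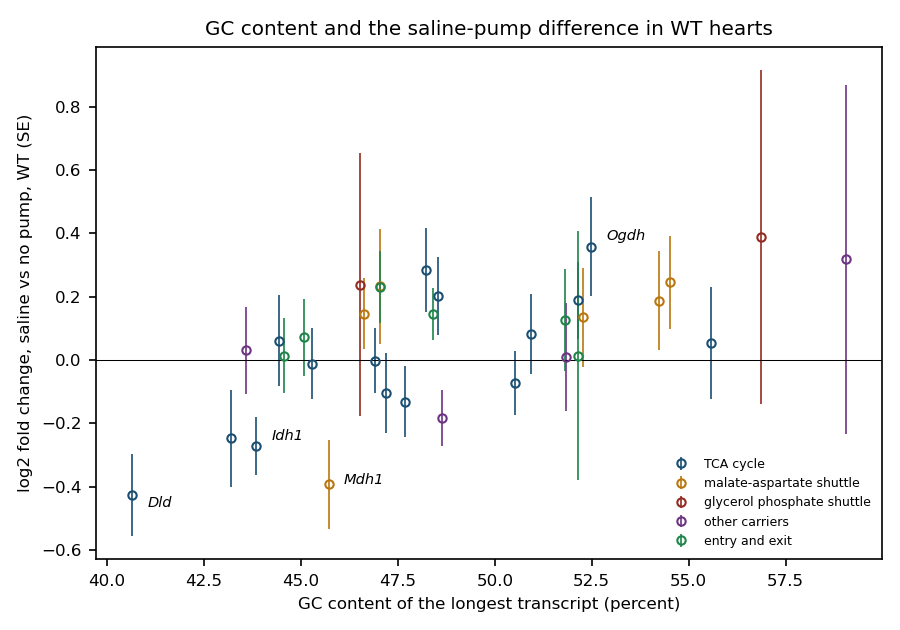
Difference between WT hearts with a saline pump and without one, as log2 fold change (vertical axis, bars are SE) against the GC content of each gene's longest transcript in percent, for the 33 members, coloured by role. Dld is at the lower left, at 40.6% and -0.43.

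Among the 41 related genes, 39 passed the low-count filter, and 4 were called in the same WT comparison of saline with no pump, 1 higher and 3 lower, against 6.61% of all tested genes. Mpc1, a subunit of the mitochondrial pyruvate carrier, fell from a mean of 188 to 124 CPM, a log2 fold change of -0.61 ± 0.14 (SE, adjusted p = 0.0158, edgeR). The succinate dehydrogenase assembly factor Sdhaf4 fell from 24.4 to 16.7 CPM (-0.54 ± 0.13, adjusted p = 0.0167, edgeR). The ATP-magnesium/phosphate carrier Slc25a24 fell from 10.6 to 7.22 CPM (-0.55 ± 0.13, adjusted p = 0.0174, edgeR). D2hgdh, which oxidises D-2-hydroxyglutarate, rose from 28.4 to 35.4 CPM (0.32 ± 0.10, adjusted p = 0.0474, edgeR), with overlapping groups. In the other 10 comparisons 0 of the 39 related genes were called by edgeR, with 2 to 18 at an unadjusted p below 0.05, against 6.92% to 20.4% of all tested genes. DESeq2 called the same 4 in that comparison and made 10 further calls of related genes in 5 of the others. Over those other 10 comparisons DESeq2 called 0.0108% to 3.17% of the 37179 genes it fitted.

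The pump contrast in the libraries labelled MCT1KO gave 0 called members by edgeR, against 0.00566% of all tested genes. DESeq2 called 2 (Slc25a1 and Gpd1), against 0.559% of the 37179 genes it fitted. By edgeR, 10 members had an unadjusted p below 0.05, against 12.1% of all tested genes. By p, Slc25a1, Gpd1 and Gpd2 came first, with log2 fold changes of 2.41 ± 0.68, 2.21 ± 0.66 and 1.62 ± 0.50 (SE) and adjusted p of 0.166, 0.183 and 0.207 (edgeR). Without saline replicate 4 these were 0.61, 0.38 and 0.28. Over the list, 26 of 33 members were lower with saline, with a median of -0.21 with all hearts and -0.11 without that heart, and 51.3% of all tested genes were higher. In the cycle, 14 of 15 genes were lower both with and without it. Cardiomyocyte markers were lower with saline for 8 of 8 genes (median -0.21), while 8 of 8 tested adipocyte, 5 of 5 atrial and 4 of 4 smooth muscle markers were higher, and their part in the list's shift was not tested.

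Ang/PE was then compared directly with no pump. In hearts labelled MCT1KO, Slc25a5 rose and was the only one of 33 members called, against 0.503% of all tested genes (0.249% higher and 0.254% lower). Slc25a5 (ENSMUSG00000016319) encodes the broadly expressed ADP/ATP translocase, the minor partner of Slc25a4 in heart muscle. It was at 188, 158 and 177 CPM in the 3 MCT1KO hearts without a pump and at 249, 234, 227, 247 and 227 CPM in the 5 with Ang/PE. The groups did not overlap. Slc25a5 had a log2 fold change of 0.44 ± 0.10 (SE, 95% interval 0.23 to 0.65), with an adjusted p of 0.0470 (edgeR). Adjusted p ran from 0.0253 to 0.414 as each heart was left out, and the call held without 7 hearts only (MCT1KO saline replicates 3 and 4, WT saline replicates 1 and 3, WT no pump replicates 1 and 3 and WT Ang/PE replicate 3).

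The low MCT1KO hearts without a pump carried much of this step, since the WT hearts without a pump were at 249, 240, 190 and 212 CPM of Slc25a5, a mean of 223 against 237 in the MCT1KO Ang/PE hearts. The ratio of Slc25a4 to Slc25a5 per kb was 11.9 ± 1.2 (SD, n = 3) in MCT1KO hearts without a pump and 8.71 ± 1.23 (n = 5) with Ang/PE, where 1 heart was lowest at 6.62. All 3 hearts without a pump had low Xist and 4 of the 5 with Ang/PE had high Xist. With Xist as a covariate the log2 fold change of Slc25a5 was 0.42, with an adjusted p of 0.228 (edgeR). Slc25a5 lies on the X chromosome, and the part of sex in the difference was not tested further. Fibroblast markers were higher with Ang/PE for 5 of 6 genes (median log2 fold change 0.66), 4 of them at an unadjusted p below 0.05 and 0 called by edgeR, and their part was not tested.

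Next by p in the same comparison were Me2 and Idh1, neither called. Me2 was at 9.47, 9.02 and 10.8 CPM without a pump and at 13.9, 15.2, 10.4, 11.9 and 10.8 with Ang/PE, with overlap (log2 fold change 0.35 ± 0.14, adjusted p = 0.253, edgeR). Idh1 was at 50, 49.7 and 44.2 CPM without a pump and at 41.1, 41.5, 37.5, 42.7 and 37.3 with Ang/PE, with no overlap (-0.26 ± 0.10, adjusted p = 0.262, edgeR). The list divided 11 higher to 22 lower, with a median of -0.05, and the cycle 2 to 13, against 49.4% of all tested genes higher.

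In WT hearts, Ang/PE against no pump gave 0 called members by edgeR, against 0% of tested genes. DESeq2 also called 0, against 0.0914% of the 37179 genes it fitted. At an unadjusted p below 0.05 there were 2 members by edgeR, against 9.02% of tested genes. These were Idh1 and Dld. Idh1 was at 42.4, 42.3 and 44.0 CPM in the 3 Ang/PE hearts, all below the 4 without a pump (log2 fold change -0.37 ± 0.11, adjusted p = 0.372, edgeR). Dld was at 277, 316 and 299 CPM, also below all 4 (-0.37 ± 0.16, adjusted p = 0.484, edgeR). Mdh1 was at 1348, 1362 and 1400 CPM, again below all 4 (-0.34 ± 0.17, adjusted p = 0.556, edgeR). This comparison shares its 4 control hearts with saline against no pump in WT, so the same genes at the top of both are not separate observations. The list divided 12 higher to 21 lower, with a median of -0.07.

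The genotype comparisons gave 0 called members in each of the 3 treatments by edgeR, against 0% of all tested genes in each. Without a pump, 2 members had an unadjusted p below 0.05, against 12.2% of tested genes. Slc25a5 was lower in the hearts labelled MCT1KO with no overlap, in the values given above (log2 fold change -0.35 ± 0.11, 95% interval -0.57 to -0.14, adjusted p = 0.227, edgeR). Mdh1 was at 1552, 1261 and 1149 CPM in those hearts, below all 4 WT hearts (-0.39 ± 0.17, adjusted p = 0.360, edgeR). Idh1 was next by p and overlapped (-0.21 ± 0.11, adjusted p = 0.440, edgeR). The list divided 15 higher to 18 lower, with a median of -0.03.

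With saline, 0 members were called for the genotype by edgeR. DESeq2 called 3 (Slc25a1, Acly and Gpd1), against 0.39% of the 37179 genes it fitted. At an unadjusted p below 0.05 there were 24 of 33 members by edgeR, against 17% of tested genes. The members share hearts, so this count is not one of separate observations, and it was 8 without MCT1KO saline replicate 4, against 6.89% of tested genes. Over the list, 25 of 33 members were lower in the hearts labelled MCT1KO with a median log2 fold change of -0.29, while 54.7% of all tested genes were higher. Without replicate 4, 27 of 33 were lower with a median of -0.19, among them 15 of 15 cycle genes and 6 of 6 malate-aspartate genes. The lowest by fold with all hearts was Slc25a11, the oxoglutarate carrier of the malate-aspartate shuttle, at -0.51 ± 0.16 (SE, adjusted p = 0.154, edgeR), and it was -0.31 without that heart. Acly, Slc25a1 and Gpd1 were higher by 1.5 ± 0.39, 2.01 ± 0.52 and 1.97 ± 0.51 (adjusted p of 0.119, 0.125 and 0.125, edgeR) and by 0.21, 0.21 and 0.14 without it. Cardiomyocyte markers summed to 53079 to 57883 CPM in the other 3 MCT1KO saline hearts and to 56955 to 70186 CPM in the 6 WT saline hearts, so they were also mostly lower, and their part in the list's shift was not tested.

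**Figure D5:**
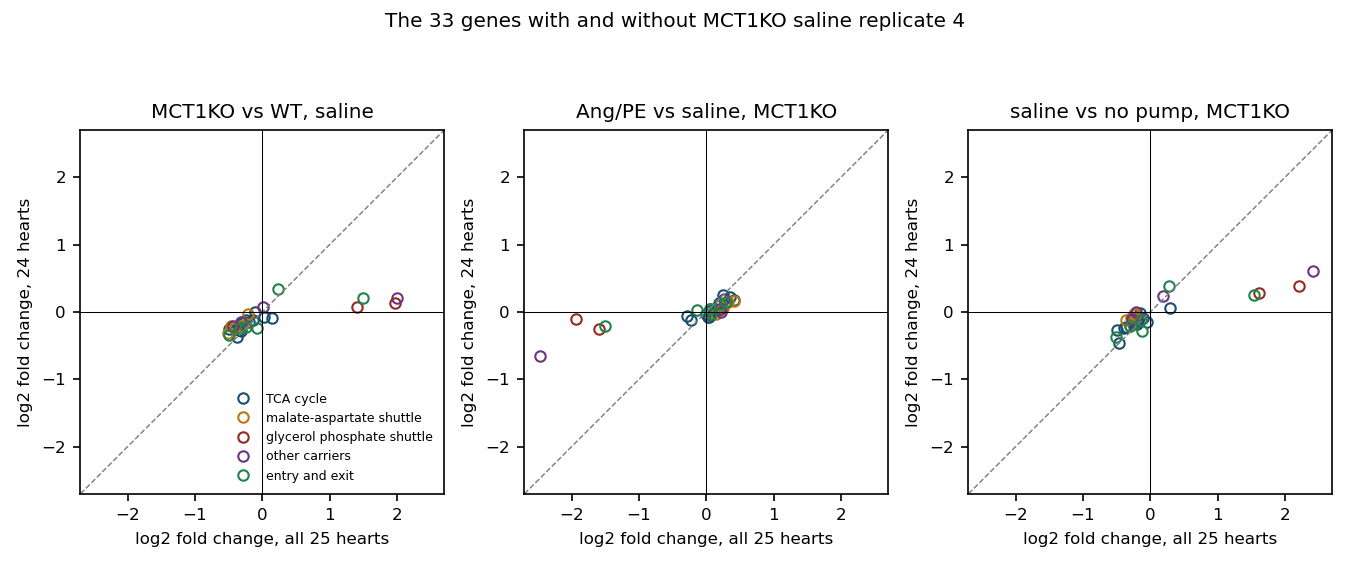
Log2 fold change of the 33 members with all 25 hearts (horizontal) against that without MCT1KO saline replicate 4 (vertical) in 3 of the 5 comparisons that use the MCT1KO saline group. The dashed line marks equal values. Gpd1, Gpd2, Slc25a1 and Acly lie far along the horizontal axis, down to -2.46 and up to 2.41, and between -0.66 and 0.61 on the vertical one.

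With Ang/PE, 0 of 33 members reached an unadjusted p below 0.05 for the genotype by edgeR, against 6.92% of tested genes. DESeq2 called 0, against 0.0108% of the 37179 genes it fitted. The 3 of smallest p were Slc25a5 at 0.16 ± 0.10, Me2 at 0.19 ± 0.14 and Idh3b, a subunit of the NAD-dependent isocitrate dehydrogenase, at -0.18 ± 0.14 (adjusted p of 0.758, 0.780 and 0.801, edgeR). Slc25a5 was at 199, 221 and 217 CPM in the WT Ang/PE hearts, all below the 5 labelled MCT1KO. Me2 was at 10.3, 11.3 and 11.2 CPM in the WT hearts, overlapping the others, and Idh3b at 475, 496 and 468 CPM against 327 to 498. The list divided 16 higher to 17 lower, with a median of 0.00, and fold changes ran from -0.18 for Idh3b to 0.31 for Gpd1.

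Whether genotype changed the response was tested by interaction terms, and 0 of 33 members were called in either by edgeR or by DESeq2. By edgeR the shares of tested genes called were 0% for Ang/PE and 0.00566% for saline. By DESeq2 they were 0.0296% and 0.992% of 37179 genes. For Ang/PE against saline, Ogdh came first: its level ran from 2444 to 3451 CPM (median 3020) with saline and was at 2808, 2653 and 2217 CPM with Ang/PE in WT hearts. In hearts labelled MCT1KO it was at 2521, 2607, 2404 and 1672 CPM with saline and at 3258, 2496, 3286, 3102 and 2598 with Ang/PE. The WT difference was downward and the other upward, and the interaction was 0.60 ± 0.24 on the log2 scale (SE, adjusted p = 0.312, edgeR). Slc25a1 and Acly followed at -2.07 ± 0.83 and -1.42 ± 0.59 (adjusted p of 0.318 and 0.327, edgeR). Without MCT1KO saline replicate 4 the interactions of Slc25a1 and Acly were -0.27 and -0.12 (adjusted p of 0.804 and 0.758, edgeR), and that of Ogdh was 0.46 (adjusted p = 0.519).

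For saline against no pump, Me3 and Ogdh came first, at -0.54 ± 0.17 and -0.71 ± 0.24 (SE, adjusted p of 0.146 and 0.152, edgeR). Me3 was at 87.9, 66.7, 59.5 and 69.3 CPM in WT hearts without a pump and ran from 69.3 to 97.7 (median 84.9) with saline. It was at 72, 93.5 and 80.5 CPM in MCT1KO hearts without a pump and at 73.9, 70.2, 67 and 54.3 with saline. Ogdh was at 3237, 2167, 1875 and 2171 CPM in WT hearts without a pump and at 2475, 3295 and 3054 CPM in those labelled MCT1KO. WT no pump replicate 1 was the highest of its group for both genes, and without it both interactions were called. Without MCT1KO saline replicate 4, which was the lowest of its group for both genes, they were -0.44 for Me3 and -0.58 for Ogdh (adjusted p of 0.214 and 0.216, edgeR). Slc25a5 came next at 0.37 ± 0.14 (adjusted p = 0.187, edgeR). Over the list, 26 of 33 interaction terms were positive for Ang/PE (median 0.20) and 23 of 33 negative for saline (median -0.22), against 47.6% and 53.3% positive among all tested genes, and both use the same saline hearts. Without MCT1KO saline replicate 4 these were 26 positive (median 0.17) and 24 negative (median -0.14). Cardiomyocyte markers were positive for 8 of 8 genes for Ang/PE (median 0.43) and negative for 8 of 8 for saline (median -0.38), with all hearts. The 8 tested adipocyte markers all had the opposite signs. The part of these cell types was not tested.

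Within groups many pairs of members varied together. Taking each heart's deviation from its group mean over 25 hearts, the pairs among the 29 members other than Gpd1, Gpd2, Slc25a1 and Acly had a median Pearson correlation of 0.63, and of 0.69 without MCT1KO saline replicate 4. The pairs among the 29 ran from -0.54 to 0.97 with all hearts. The pairs among those 4 had a median of 0.95, which was 0.53 without that heart. The pairs between the 4 and the 29 had a median of -0.43 with all hearts and 0.00 without it. These values describe libraries that share depth and composition. They were not computed for other genes, so they are not shown to be particular to the members. The 4 are the members whose calls rested on MCT1KO saline replicate 4, so their values with all hearts are not a separate observation. Glud1, the glutamate dehydrogenase, and Idh3a, the catalytic subunit of the NAD-dependent isocitrate dehydrogenase, were the steadiest members, with 1.46 and 1.52 fold between the highest and lowest heart. Idh2 and Slc25a13 were the most variable of the 29, at 3.49 and 3.48 fold, and both were lowest in MCT1KO saline replicate 4.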

How the data were processed

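The data are raw counts per Ensembl gene, deposited as a single table with a column for each heart. Per the labels' protocols, total RNA was depleted of ribosomal RNA and made into strand-specific libraries. The submitters' processing notes name cutadapt 1.16, STAR 2.7.9a, featureCounts 1.6.3, DESeq2 1.42.1 and the mouse build GRCm39. Columns were matched to samples by title. Symbols, exon length and GC content came from GENCODE M21 (GRCm38) and promoters from RefSeq (GRCm38.p6). No other coordinates were used, because the builds differ. Whether counting used strand is not given in the sources used here.

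The counts were tested with edgeR 4.0.16 in R 4.3.3 (filterByExpr, TMM, robust glmQLFit and glmQLFTest) in 1 model of 6 groups and 25 hearts, with 19 residual degrees of freedom. P-values were two-sided and adjusted by Benjamini-Hochberg over 17682 genes in each of 11 comparisons, and called below 0.05. Standard errors came from the F statistic. CPM is the count divided by the TMM-adjusted library total and scaled to a common size. The fit was tested on simulated data. Each p-value sets a difference between groups against the spread between the hearts sampled. That spread was estimated over all 6 groups and moderated across genes.

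Members named heart by heart are those called in any comparison and the 3 of smallest p in each. The members, lists and rules were chosen with earlier results of these data known. Alternatives were RLE scaling, DESeq2 1.42.0, no low-count filter, only the groups compared, a replicate block, no mitochondrially encoded genes, Xist or marker scores as covariates, GC and length offsets (mgcv 1.9.3) and leaving out each heart. A further alternative, chosen after seeing the data, left out 7 saline hearts with Myl7 above 10 CPM. Replicate numbers come from the titles and do not pair hearts.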

Additional observations from a re-analysis of the deposited data

Results flagged for a closer look

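In each group of 4 to 10 hearts, each member was checked for a highest or lowest heart that stands off from the rest of its group. There were 132 such checks, of which chance flags about 1 in 20, or 6.6, and 11 stood out, 8 of them in MCT1KO saline replicate 4. Values are log2 CPM. In that heart Suclg2 was low at 6.37, Mdh2 at 9.06 and Got2 at 8.65. The carriers Slc25a11 at 7.46, Slc25a12 at 7.07, Slc25a13 at 5.62 and Slc25a4 at 10.43 were low there as well, and Aco1 was high at 6.36. Of the other 3, Aco1 was high at 5.84 in WT saline replicate 2, Suclg1 was high at 7.80 in MCT1KO saline replicate 3, and Slc25a4 was low at 11.07 in MCT1KO Ang/PE replicate 5. Members of 1 heart share its library, so the 8 are not separate observations.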

How the results depend on the processing

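Counts of called members moved with the processing in 6 of 11 comparisons. For MCT1KO against WT with saline (0), DESeq2 gave 3 and the Xist covariate 2, against 145 of 37179 and 82 of 17682 tested genes. For Ang/PE against saline, fitting only the groups compared gave 2 in WT (0), against 945 of 16621 tested genes. In MCT1KO (4) it gave 0, as did the marker covariates, against 1 of 15817 and 0 of 17682 tested genes. No low-count filter and the Xist covariate each gave 1, against 452 of 37223 and 633 of 17682 tested genes. For saline against no pump in WT (1), DESeq2 gave 3 and only the groups compared 4, and marker covariates, GC offsets, no filter, RLE scaling and leaving out Myl7 hearts each gave 0. All genes called in that comparison were 1955 of 37179 by DESeq2 and 2287 of 16523 with only the groups compared. With RLE scaling they were 1113 of 17682, with GC offsets 134 and with marker covariates 0. With no filter they were 509 of 37223. In MCT1KO (0), DESeq2 gave 2 and the Xist covariate 1, against 208 of 37179 and 69 of 17682 tested genes. For Ang/PE against no pump in MCT1KO (1), no filter, only the groups compared, RLE scaling, the Xist covariate, removing mitochondrially encoded genes and leaving out Myl7 hearts each gave 0. All genes called there were 11 of 17682 with the Xist covariate and 92 with RLE scaling. The replicate block gave 0 in the 3 comparisons with calls, and changed no other count. It called 534, 527 and 81 of 17682 genes in those 3, in the order above. The replicate numbers do not pair the hearts: 52 same-numbered pairs had a mean correlation of 0.0094, from -0.23 to 0.40. Leaving out 1 heart gave 0 to 4 called members for MCT1KO against WT with saline, 0 to 4 for Ang/PE against saline in MCT1KO, 0 to 4 for saline against no pump in WT and in MCT1KO, 0 to 1 for Ang/PE against no pump in MCT1KO, 0 to 2 for the saline interaction, and 0 in the other 5. The 4 came without MCT1KO saline replicate 3 for MCT1KO against WT with saline (2 without replicate 2) and for saline against no pump in MCT1KO. In WT the 4 came without WT no pump replicate 1, with 2 and 3 without MCT1KO saline replicates 3 and 4. The 2 for the interaction came without WT no pump replicate 1. Without MCT1KO saline replicate 4, 39 of 17547 tested genes were called for Ang/PE against saline in MCT1KO. In that fit 1682 were called for saline against no pump in WT. The shares of all genes for the other omissions are not given here. Why the counts of called members moved was not tested.

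Among the members named by rule, directions turned for Gpd1, Gpd2, Slc25a1 and Acly only, under marker covariates and, second of each pair, without the Myl7 hearts, where 1 MCT1KO saline heart remained and was assumed to vary like the other groups. For MCT1KO against WT with saline, log2 fold changes were -0.50 and -0.62 for Gpd1, -0.42 and -0.56 for Slc25a1, and -0.18 and -0.011 for Acly. For Ang/PE against saline in MCT1KO they were 0.86 and 0.63 for Gpd1, 0.42 and 0.23 for Gpd2, 0.62 and 0.39 for Slc25a1, and 0.41 and 0.047 for Acly. For saline against no pump in MCT1KO they were -0.69 and -0.35 for Gpd1, -0.48 and -0.21 for Gpd2, and -0.82 and -0.45 for Slc25a1. The Ang/PE interactions were 0.48 and 0.49 for Slc25a1 and 0.38 and 0.089 for Acly. No direction of a named member turned when 1 heart was left out.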
